A study of Bos indicus with 12 samples.

Results

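Blood RNA of 3 high-yielding Gir cows was compared with blood RNA of 3 high-yielding Shweta Kapila cows, which are 6 of the 12 libraries of the series. Gir and Shweta Kapila are zebu (Bos indicus) breeds of India. The cows were chosen by their labels: every library labelled with one of these breeds and a high yield entered the comparison. All 6 cows are female and the study took its cows from the second and the third lactation, with no treatment given. The yield class was set from lactation records within each breed, so a high-yielding Gir cow and a high-yielding Shweta Kapila cow need not give the same amount of milk, and the sources used here do not give the yields. The other 6 libraries, 3 low-yielding cows of each breed, are used here for the estimate of spread and as a second comparison of the breeds in other cows. Each library comes from its own cow, so p-values measure the spread between cows. Breed cannot be told apart from anything else in which these 3 cows of each breed differ, such as herd, ration or day of sampling, which the labels do not give.

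Cytotoxic lymphocytes, which are natural killer cells and killer T cells, kill infected or altered cells by releasing perforin, which forms pores in a membrane, and granzymes, which are proteases. B cells make antibody, while monocytes and dendritic cells take up microbes and present pieces of them to T cells. The blood of cattle, as of other ruminants, holds many gamma-delta T cells, a class with an antigen receptor of its own. In bulk blood RNA, fewer cells of a type and less RNA per cell cannot be told apart.

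Depth in the 6 libraries ran from 16.4 M expected counts (M stands for 1e6) in Gir cow 1 to 27.2 M in Shweta Kapila cow 3. All members of the T cell list were detected, as were markers of B cells, monocytes, neutrophils, platelets and red cells, and none of these marker genes that carry a name here was at 0 in all 6 libraries. The labels give both mononuclear cells and a kit for whole blood. The 15 neutrophil markers in the table summed to between 4270 and 6280 CPM (counts per 1e6 of TMM-scaled library size) in Gir and to between 2410 and 5800 CPM in Shweta Kapila, so granulocyte RNA was present. On the first principal component of all 12 libraries, Shweta Kapila cow 3 lay at 45.6, away from cows 1 and 2 of her group at -62.4 and -13, while the 3 Gir cows lay between -27.5 and 0.0258. A set of 37 short identifiers with no gene name took between 6.72% and 8.22% of the counts in the Gir cows, 4.54% and 4.72% in Shweta Kapila cows 1 and 2, and 9% in cow 3.

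Of 15420 genes tested, none differed between the breeds at an adjusted p under 0.05 by edgeR's quasi-likelihood test, and the lowest adjusted p was 0.0788. At an unadjusted p under 0.05 there were 1216 genes (7.89%), 754 with the higher mean in Shweta Kapila (4.89%) and 462 with the higher mean in Gir (3%). DESeq2, run as an alternative on the same 12 libraries, called 131 genes (0.826% of the genes it tested), 103 higher in Shweta Kapila (0.649%) and 28 higher in Gir (0.176%). Limma-voom with sample weights called 226, and edgeR on the 6 high-yield libraries alone called 18. Groups of 3 cows did not overlap for 1033 genes with Shweta Kapila above (6.7%) and 926 with Gir above (6.01%). The median log2 difference of all genes, Shweta Kapila minus Gir, was 0.04, and 54.4% of genes had the higher mean in Shweta Kapila. Leaving out Shweta Kapila cow 3 gave 765 genes at an unadjusted p under 0.05 on the Gir side and 1019 on the Shweta Kapila side, and the share of short identifiers as a covariate gave 1217 and 1289, so counts within lists under those settings are read against these totals. In what follows a gene is said to be called only where a tool is named, and other genes are given by their values. An exact permutation test of a single gene with 3 cows against 3 cannot go below p = 0.1.

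Genes of cytotoxic lymphocytes had some of the lowest p-values on the Shweta Kapila side. PRF1, which encodes perforin, was at 94.5, 72.2 and 46.5 CPM in Gir cows 1 to 3 and at 444, 396 and 239 CPM in Shweta Kapila cows 1 to 3. The lowest Shweta Kapila cow lay well above the highest Gir cow, and the mean difference was 2.34 ± 0.36 on the log2 scale (SE, n = 3 cows in each group). Its adjusted p was 0.113 by edgeR over all 12 libraries and 2.54e-06 by DESeq2. EdgeR also called it in the fit of the 6 high-yield libraries (adjusted p = 0.0359), with no filter on low counts, with the short-identifier share as a covariate, and without Shweta Kapila high cow 3 or low cow 3. It did not call PRF1 when any other high-yielding cow was left out. There its adjusted p ran from 0.208 without Shweta Kapila cow 1 to 0.687 without Shweta Kapila cow 2.

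CCL5, a chemokine made by activated T cells and natural killer cells, was measured at 181, 114 and 87.8 CPM in Gir and at 2070, 955 and 443 CPM in Shweta Kapila. All 3 Shweta Kapila cows lay above all 3 Gir cows, but they spread over a wide range among themselves. The log2 difference was 3.18 ± 0.62 (adjusted p = 0.214 by edgeR and 3.59e-05 by DESeq2), and 2.46 without Shweta Kapila cow 1. NKG7, a protein of cytotoxic granules, was at 73.6, 42.5 and 33.7 CPM in Gir and at 329, 240 and 115 CPM in Shweta Kapila. CST7, an inhibitor of the proteases that activate granzymes, was at 30, 34.8 and 23 CPM against 107, 77.5 and 48.3 CPM. Neither gene overlapped between the breeds, with log2 differences of 2.19 ± 0.49 and 1.41 ± 0.34. DESeq2 called both (adjusted p = 0.00302 and 0.0186), and edgeR did not (adjusted p = 0.244 and 0.313).

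Of 22 genes on the natural killer and cytotoxic list, 13 have a row in the table and all 13 passed the filter. The mean was higher in Shweta Kapila for 12 of them, against 54.4% of all genes, and the median log2 difference was 1.73 against 0.04 for all genes. An unadjusted p under 0.05 was reached by 9 of 13 on the Shweta Kapila side (4.89% of all genes), the breeds did not overlap for 9 (6.7% of all genes), and DESeq2 called 4. The summed level of the list was 962, 710 and 519 CPM in the Gir cows and 4280, 2990 and 1740 CPM in the Shweta Kapila cows. GZMM, a granzyme, differed widely among the Shweta Kapila cows, at 77.5 CPM in cow 1, 31.6 in cow 2 and 14 in cow 3, against 10.3 to 13.6 CPM in Gir. NCR3, an activating receptor of natural killer cells, was at 201 and 144 CPM in Shweta Kapila cows 1 and 2 but at 34.6 CPM in cow 3, below the Gir cows at 44.6 to 53.1 CPM. Without cow 3 the list's median was 1.90, and with the short-identifier share as a covariate it was 1.33.

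**Figure D1:**
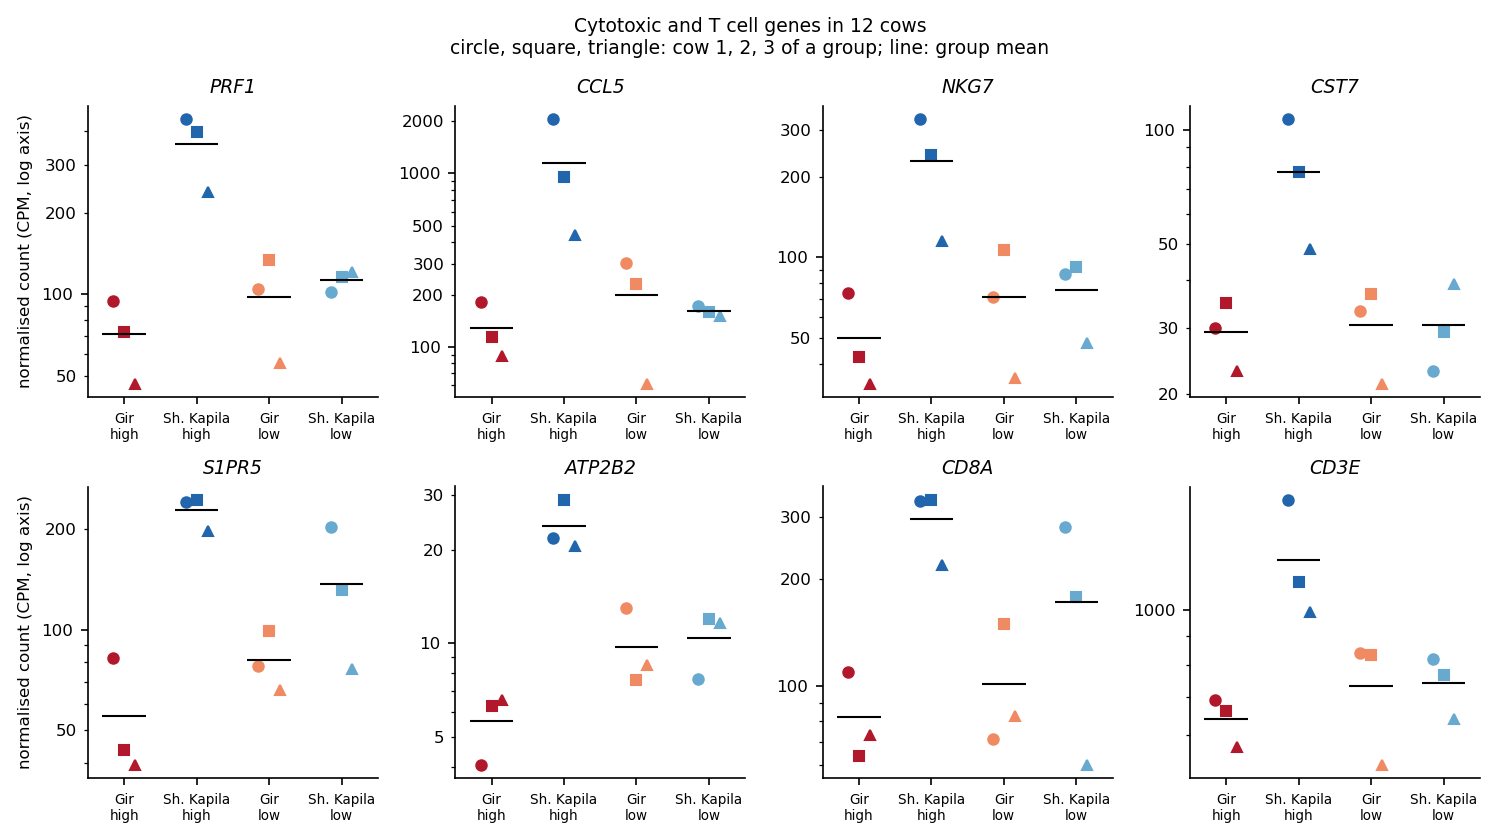
Normalised counts (CPM, log axis) of 8 genes in the 12 cows, in 4 groups of breed and yield class, with 3 points for the cows and a line for the group mean. Shown are cytotoxic and T cell genes and ATP2B2, a calcium pump gene. All were chosen for a low p or after their values were seen, so their separation in high-yielding cows partly follows from that choice. In the high-yielding cows every Shweta Kapila point lies above every Gir point for all 8 genes, for PRF1 at 239 to 444 CPM against 46.5 to 94.5, while the low-yielding groups overlap.

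Several genes picked for a low p or after their values were seen are known as background from cytotoxic lymphocytes or other T cells, and they stand for no list. ADGRG1, an adhesion receptor of cytotoxic lymphocytes, was at 134, 84.5 and 42.4 CPM in Gir and at 590, 692 and 392 CPM in Shweta Kapila. S1PR5, a receptor for sphingosine-1-phosphate through which natural killer cells leave tissues, was at 82.5, 43.7 and 39.4 CPM against 242, 245 and 197 CPM. Their log2 differences were 2.68 ± 0.52 and 2.05 ± 0.37, with every Shweta Kapila cow above every Gir cow. EdgeR over 12 libraries gave both an adjusted p of 0.214, and edgeR on the 6 high-yield libraries gave both 0.048. CMKLR1, the receptor for the chemoattractant chemerin, was at 11.7 to 15.7 CPM in Gir and at 63.5 to 102 CPM in Shweta Kapila. IL12RB1, a receptor chain for interleukin-12, was at 62.5, 58.8 and 43 CPM against 168, 165 and 86.4 CPM, and SH2D2A, an adaptor protein of T cells, was at 49.5, 37 and 28.9 CPM against 136, 120 and 89.6 CPM. RUNX3, a transcription factor of killer T cells named after its values were seen, was at 178 to 238 CPM in Gir and at 353 to 481 CPM in Shweta Kapila. DESeq2 called all of these (adjusted p from 0.000184 for ADGRG1 to 0.0107 for RUNX3).

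The lowest p of a gene with a name belonged to ATP2B2, a calcium pump of the plasma membrane. It was at 4.06, 6.3 and 6.56 CPM in Gir and at 21.8, 28.9 and 20.5 CPM in Shweta Kapila, a log2 difference of 2.07 ± 0.32. The cows of each breed lay close together and the gap between the breeds was wide (adjusted p = 0.113 by edgeR and 2.02e-06 by DESeq2). SAXO1, a protein that binds microtubules, was at 0.413 to 0.869 CPM in Gir and at 3.48 to 4.37 CPM in Shweta Kapila. KCNK1, a potassium channel, was at 2.88 to 3.41 CPM against 8.91 to 11.4 CPM. MVB12B, a subunit of the machinery that sorts membrane proteins for breakdown, was at 21.4 to 31.2 CPM against 58.8 to 88.1 CPM. None of these overlapped between the breeds. BEGAIN was at 0.581 to 0.706 CPM in Gir and at 4.75, 14.1 and 2.88 CPM in Shweta Kapila, with a log2 difference of 3.46 ± 0.67 that was 2.53 without Shweta Kapila cow 2.

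SERPINA1, which encodes alpha-1-antitrypsin, an inhibitor of neutrophil elastase, had no count in the 3 Gir cows. In Shweta Kapila cows 1 to 3 it was at 3.67, 1.23 and 3.03 CPM, 162 counts in all. Set against a floor of 3 counts over the 3 Gir libraries, the Shweta Kapila level was at least 48.4-fold higher. In the low-yielding cows it was at 0, 0 and 0.191 CPM in Gir and at 0.445, 0 and 0.228 CPM in Shweta Kapila, so it was low in both breeds.

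All 24 genes of the T cell list passed the filter, and 18 had the higher mean in Shweta Kapila, with a median log2 difference of 0.72. There were 13 at an unadjusted p under 0.05, all on the Shweta Kapila side (4.89% of all genes), and 14 for which every Shweta Kapila cow lay above every Gir cow (6.7% of all genes). Without Shweta Kapila cow 3 the median was 0.86 and 13 again reached that p. DESeq2 called CD6, CD247, CD8A, CD8B and CD3G. CD8A, a chain of the coreceptor of killer T cells, was at 110, 63.7 and 73 CPM in Gir and at 333, 335 and 220 CPM in Shweta Kapila. CD8B, the other chain, was at 51.7, 37.2 and 41.6 CPM against 151, 126 and 84 CPM. Both chains were thus separated between the breeds, at log2 differences of 1.85 ± 0.48 and 1.47 ± 0.37 (adjusted p = 0.0278 and 0.0346 by DESeq2, 0.337 and 0.328 by edgeR).

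Other genes of the T cell list were separated as well. CD247, the zeta chain that carries the receptor's signal, was at 278, 248 and 237 CPM in Gir and at 477, 505 and 432 CPM in Shweta Kapila, a log2 difference of 0.89 ± 0.21. CD3E was at 693, 661 and 571 CPM against 1570, 1120 and 992 CPM, a difference of 0.94 ± 0.25. CD6, a receptor that tunes T cell activation, was at 140, 113 and 96.1 CPM against 419, 317 and 212 CPM, a difference of 1.44 ± 0.31. None of the 3 overlapped between the breeds. Of the 24 genes on the list, 6 had the higher mean in Gir. CD4, CCR7 and LEF1, genes of helper and naive T cells, were named from the list after their values were seen and stand for no cell class. CD4 was at 288 to 339 CPM in Gir and at 231 to 297 CPM in Shweta Kapila. CCR7 was at 209 to 364 against 163 to 259 CPM, and LEF1 at 269 to 349 against 193 to 271 CPM. These 3 genes overlapped, each with the lower mean in Shweta Kapila. The mean log2 CPM of the whole T cell list was between 7.06 and 7.27 in Gir and between 7.66 and 7.88 in Shweta Kapila. Of 8 listed gamma-delta T cell genes only 4 have a row, with 3 of 4 higher in Shweta Kapila and a summed level of 94.8 to 127 CPM in Gir and 114 to 148 CPM in Shweta Kapila.

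Segments of antigen receptor genes carry LOC numbers here, so they were grouped by the named genes that flank them in RefSeq's order, and no receptor chain is assigned to them. They were singled out after their values were seen. In humans the T cell receptor alpha and delta genes lie beside DAD1, and the gamma genes lie between AMPH and STARD3NL. Between DAD1 and OR4E1 there were 24 tested segments, of which 23 had the higher mean in Shweta Kapila, with a median log2 difference of 1.14, and 16 reached an unadjusted p under 0.05 (4.89% of all genes). The constant region LOC109564835 in that stretch was at 284, 425 and 289 CPM in Gir and at 748, 908 and 717 CPM in Shweta Kapila. The 3 constant regions between AMPH and LSM8 and the 2 between STARD3NL and CTTNBP2 all lay above in every Shweta Kapila cow, at medians of 1.92 and 2.30. Among these, LOC109557888 was at 14.6, 15.6 and 10.2 CPM against 121, 94.3 and 56.6 CPM, one of the 2 lowest p-values of the table (adjusted p = 0.0788 by edgeR and 1.84e-08 by DESeq2). The other was 109557403, an identifier with no name, at 5.87, 4.56 and 2.79 CPM against 30, 41.8 and 19 CPM. Between MGAM and PRSS2, where the beta genes lie in humans, the constant region LOC109557711 was at 333, 347 and 304 CPM in Gir and at 925, 555 and 438 CPM in Shweta Kapila. Both variable segments tested there had the higher mean in Gir, by 1.73 ± 0.84 for LOC109557997 and 0.48 ± 0.62 for LOC109557980, with overlapping breeds. The 1 variable segment between PAX8 and RPIA, LOC109566143, had the higher mean in Shweta Kapila by 0.40 ± 0.28, also with overlap. Of the 4 segments between SLC5A1 and ZNF70, none reached an unadjusted p under 0.05 on the Shweta Kapila side and 1 did on the Gir side.

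Further unnamed genes with low p-values were again picked by their values. LOC109559668 and LOC109559660, which lie on either side of KLRK1, were at 1.19 to 1.51 and 0.978 to 1.92 CPM in Gir and at 6.01 to 14 and 10.3 to 16.9 CPM in Shweta Kapila. KLRK1 itself, an activating receptor of natural killer cells, was at 81.4, 32.5 and 20.2 CPM against 83.4, 201 and 160 CPM, where Gir cow 1 and Shweta Kapila cow 1 lay almost level. LOC109566163, between ATOH8 and SFTPB, was the most abundant of these genes. It stood at 197, 156 and 59.3 CPM in Gir and at 1600, 1590 and 785 CPM in Shweta Kapila, a log2 difference of 3.27 ± 0.63 (adjusted p = 0.0359 by edgeR on the 6 libraries and 0.214 on 12).

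B cell markers lay on the opposite side. Of 19 listed genes 16 were tested, and 15 had the higher mean in Gir against 45.6% of all genes, with a median log2 difference, Gir minus Shweta Kapila, of 0.82. An unadjusted p under 0.05 was reached by 4 (3% of all genes), and for 10 every Gir cow lay above every Shweta Kapila cow (6.01% of all genes), but neither edgeR nor DESeq2 called one. Without Shweta Kapila cow 3 the median was 0.76 and 4 reached that p (765 of all 15759 genes on the Gir side). In the fit of the 6 high-yield libraries 11 did (504 of all 14583 genes on that side). With the short-identifier share as a covariate 14 did (1217 of all 15420 genes on that side). BCL11A, a transcription factor needed for B cell development, was at 46.7, 60.2 and 61.7 CPM in Gir and at 22.2, 26.1 and 31.8 CPM in Shweta Kapila. BANK1, a scaffold of B cell receptor signalling, was at 232, 283 and 279 CPM against 116, 136 and 180 CPM. BLNK, the linker protein of that pathway, was at 49.2, 53.1 and 78.2 CPM against 32.9, 32.6 and 38 CPM. The differences were 1.07 ± 0.33, 0.88 ± 0.31 and 0.80 ± 0.29, at adjusted p of 0.445, 0.503 and 0.503 by edgeR. In the separate list of immunoglobulin and B cell receptor genes, 9 of 11 tested genes had the higher mean in Gir and 5 reached an unadjusted p under 0.05 (3% of all genes), with FCRL5, an Fc receptor-like protein of B cells, at 117, 162 and 246 CPM against 55.8, 65.8 and 112 CPM. Plasma cell genes were divided, with 5 of 12 higher in Gir.

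Monocyte markers had the higher mean in Gir for 9 of 11 tested genes of 17 listed, at a median of 0.89. An unadjusted p under 0.05 was reached by 4 on the Gir side (3% of all genes) and by 1, CX3CR1, on the Shweta Kapila side. VCAN, the proteoglycan versican, was at 109, 151 and 118 CPM in Gir and at 37.4, 28.2 and 91.9 CPM in Shweta Kapila. CD14, the coreceptor for bacterial lipopolysaccharide, was at 42.6, 42.7 and 62.7 CPM against 35.7, 12.7 and 35.1 CPM. Shweta Kapila cow 2 was the lowest of the 6 cows for both, and the VCAN difference of 1.26 ± 0.48 was 1.94 without cow 3. CSF1R, the receptor for the monocyte growth factor CSF1, overlapped between the breeds, at 158 to 296 CPM against 56.1 to 158 CPM. CX3CR1, which non-classical monocytes share with cytotoxic lymphocytes, went the other way, at 351, 177 and 125 CPM in Gir and at 457, 853 and 1090 CPM in Shweta Kapila. The summed level of the monocyte markers overlapped, at 2150 to 2270 CPM in Gir and 1850 to 2640 CPM in Shweta Kapila.

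All 11 tested dendritic cell markers of 16 listed had the higher mean in Gir, at a median of 0.68, and 2 of them reached an unadjusted p under 0.05 (3% of all genes), or 4 without Shweta Kapila cow 3. FLT3, the growth factor receptor of dendritic cell precursors, was at 7.14, 6.03 and 9.71 CPM in Gir and at 2.91, 2.03 and 4.18 CPM in Shweta Kapila, with no overlap. SIGLEC1, a sialic acid receptor that interferon induces on monocytes, was at 6.74, 14.3 and 21.3 CPM against 6.9, 1.6 and 2.35 CPM, where the lowest Gir cow lay just under the highest Shweta Kapila cow. DESeq2 called SIGLEC1 (adjusted p = 0.0285) and edgeR did not (0.394), and its log2 difference of 1.98 ± 0.55 was 2.83 without Shweta Kapila cow 1. Pattern recognition receptors, which sense microbial molecules, had the higher mean in Gir for 17 of 24, at a median of 0.60, with 6 at an unadjusted p under 0.05 on the Gir side (3% of all genes, 11 members without Shweta Kapila cow 3). TLR2, the receptor for bacterial lipoproteins, was at 160, 119 and 172 CPM in Gir and at 60.6, 54.5 and 130 CPM in Shweta Kapila, so that Shweta Kapila cow 3 lay within the Gir range. Neutrophil markers had the higher mean in Gir for 11 of 15, and none reached an unadjusted p under 0.05.

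Platelet genes had the higher mean in Gir for 11 of 12 tested, with a median of 0.34, and for 8 without Shweta Kapila cow 3. F13A1, coagulation factor XIII A, which platelets and monocytes both hold, was at 1170, 1310 and 3720 CPM in Gir and at 555, 364 and 980 CPM in Shweta Kapila. DESeq2 called it (adjusted p = 0.0351, against 0.389 by edgeR), and its log2 difference of 1.71 ± 0.47 was 0.97 without Gir cow 3. SELP, the adhesion molecule P-selectin, was at 25.6 to 38.4 CPM in Gir and at 10.8 to 22.4 CPM in Shweta Kapila. The summed level of the 13 platelet genes in the table was 1570, 1980 and 4120 CPM in Gir and 959, 714 and 1370 CPM in Shweta Kapila.

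**Figure D2:**
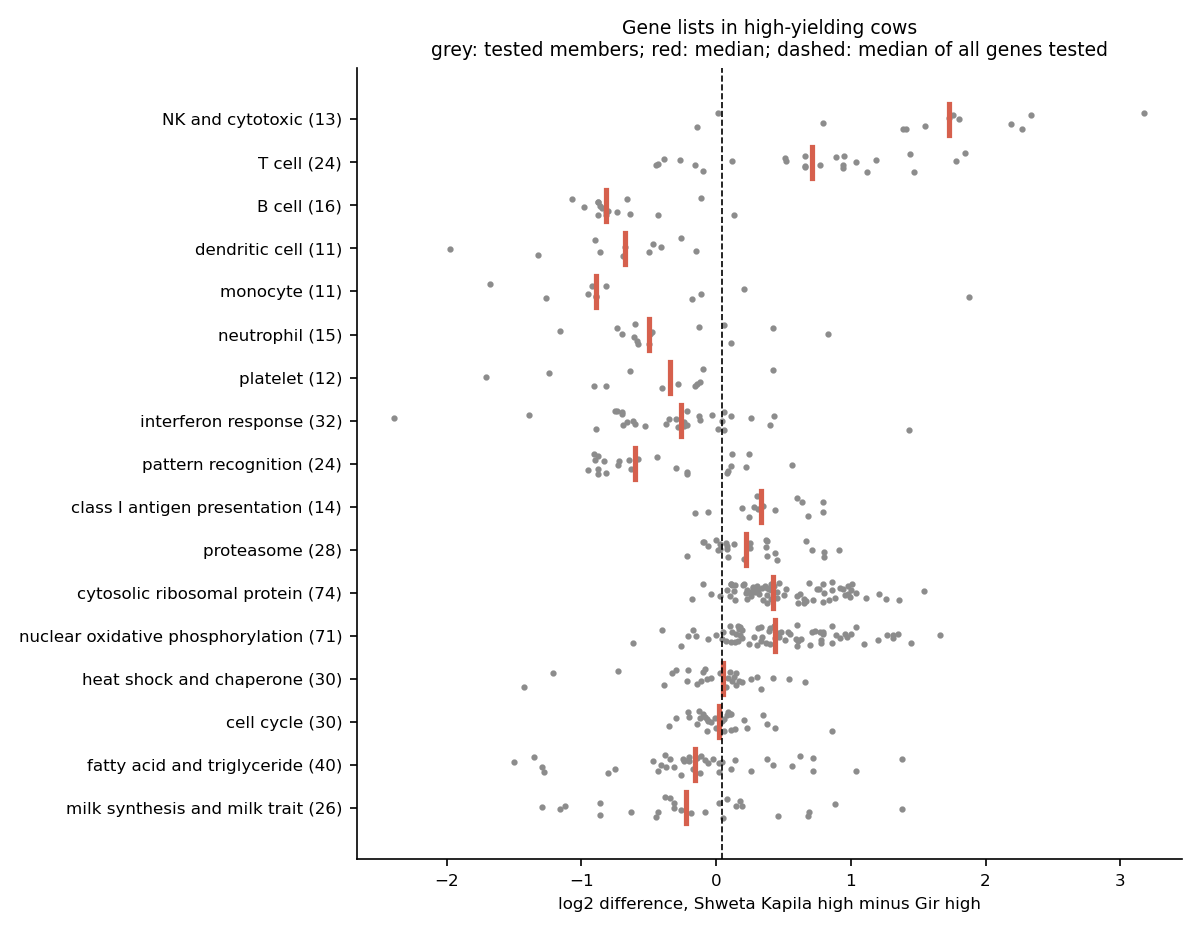
Log2 differences, Shweta Kapila minus Gir, in high-yielding cows for the tested members of 17 gene lists, with the number of members in parentheses, the list median in red and the median of all genes tested (0.04) as a dashed line. The natural killer and cytotoxic list has its median at 1.73 and the B cell list at -0.82, while heat shock and cell cycle genes centre at 0.05 and 0.02.

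Interferon response genes had the higher mean in Gir for 23 of 32, at a median of 0.26, with 3 at an unadjusted p under 0.05 on the Gir side (3% of all genes, 6 members without Shweta Kapila cow 3) and 1 on the other. Only MX2 was called by DESeq2 among them. MX2, a GTPase that blocks viruses, was at 53, 210 and 249 CPM in Gir and at 23.7, 29.3 and 44.4 CPM in Shweta Kapila. Gir cow 1 lay much nearer to the Shweta Kapila cows than to the other Gir cows, and the difference was 2.39 ± 0.55 (adjusted p = 0.00227 by DESeq2 and 0.275 by edgeR). RIGI, a sensor of viral RNA, was at 85.5 to 146 CPM against 49.5 to 81.7 CPM. OASL, also induced by interferon, stood on the other side, at 48.5, 24.7 and 26.2 CPM in Gir and at 82.5, 87.3 and 98.6 CPM in Shweta Kapila. Genes of class I antigen presentation, the route by which cells show peptides to killer T cells, had the higher mean in Shweta Kapila for 12 of 14, at a median of 0.33, with 3 at an unadjusted p under 0.05 (4.89% of all genes, 6 members without Shweta Kapila cow 3). B2M, the light chain of class I molecules, was at 3280, 3020 and 2200 CPM in Gir and at 5320, 5650 and 3690 CPM in Shweta Kapila. TAP1, which carries peptides to class I molecules, was at 263 to 314 against 360 to 409 CPM. Of the inflammatory cytokine list 25 genes were tested, and 17 had the higher mean in Gir, at a median of 0.21. An unadjusted p under 0.05 was reached by 3 on the Gir side (3% of all genes), namely PTGS2, IL1RN and IL12B, and by TNF on the Shweta Kapila side. IL1RN, which blocks the interleukin-1 receptor, was at 274, 326 and 447 CPM in Gir and at 314, 120 and 186 CPM in Shweta Kapila, with overlap. TNF, an inflammatory cytokine, was at 17.6 to 27.6 CPM in Gir and 28.6 to 50.6 CPM in Shweta Kapila.

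Among the other named genes on the Gir side, CFAP126, a protein of motile cilia, had the lowest p. It was at 36.4, 33.1 and 19.9 CPM in Gir and at 11.6, 10.2 and 10.5 CPM in Shweta Kapila, a log2 difference of 1.47 ± 0.28 (adjusted p = 0.214 by edgeR and 0.000268 by DESeq2). DMBT1, a scavenger receptor-like protein of mucosal surfaces, was at 3.66, 6.96 and 7.74 CPM against 1.27, 1.39 and 0.896 CPM. TTC21B, a part of the transport machinery of cilia, was at 64.2, 50.5 and 32.8 CPM against 20.1, 19.4 and 16.5 CPM. The 3 genes were separated between the breeds, with the Shweta Kapila cows close together. PTPRO, a receptor phosphatase, was at 4.59 to 5.43 CPM in Gir and at 0.427 to 1.53 CPM in Shweta Kapila. THBD, the anticoagulant receptor thrombomodulin, was at 13.2, 11.7 and 17.8 CPM against 6.71, 5.07 and 7.84 CPM, and LYPD3, a membrane protein of the Ly6 family, at 15 to 16.8 against 5.39 to 6.91 CPM. COL11A1, a collagen chain, was at 1.68, 2.01 and 0.103 CPM in Gir and at 0.0633, 0.107 and 0.0747 CPM in Shweta Kapila, so that Gir cow 3 lay among the Shweta Kapila cows. Of the 15 Gir-side genes with a name and the lowest p, the rest were MX2, SPECC1, HIP1, NDRG2, KLHL3, COL14A1, SLC46A2 and CAPN3. DESeq2 called all 15, and edgeR on 6 libraries called 0 of them. Of the 15 chosen alike on the Shweta Kapila side, DESeq2 called all 15 and edgeR on 6 libraries called 6.

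**Figure D3:**
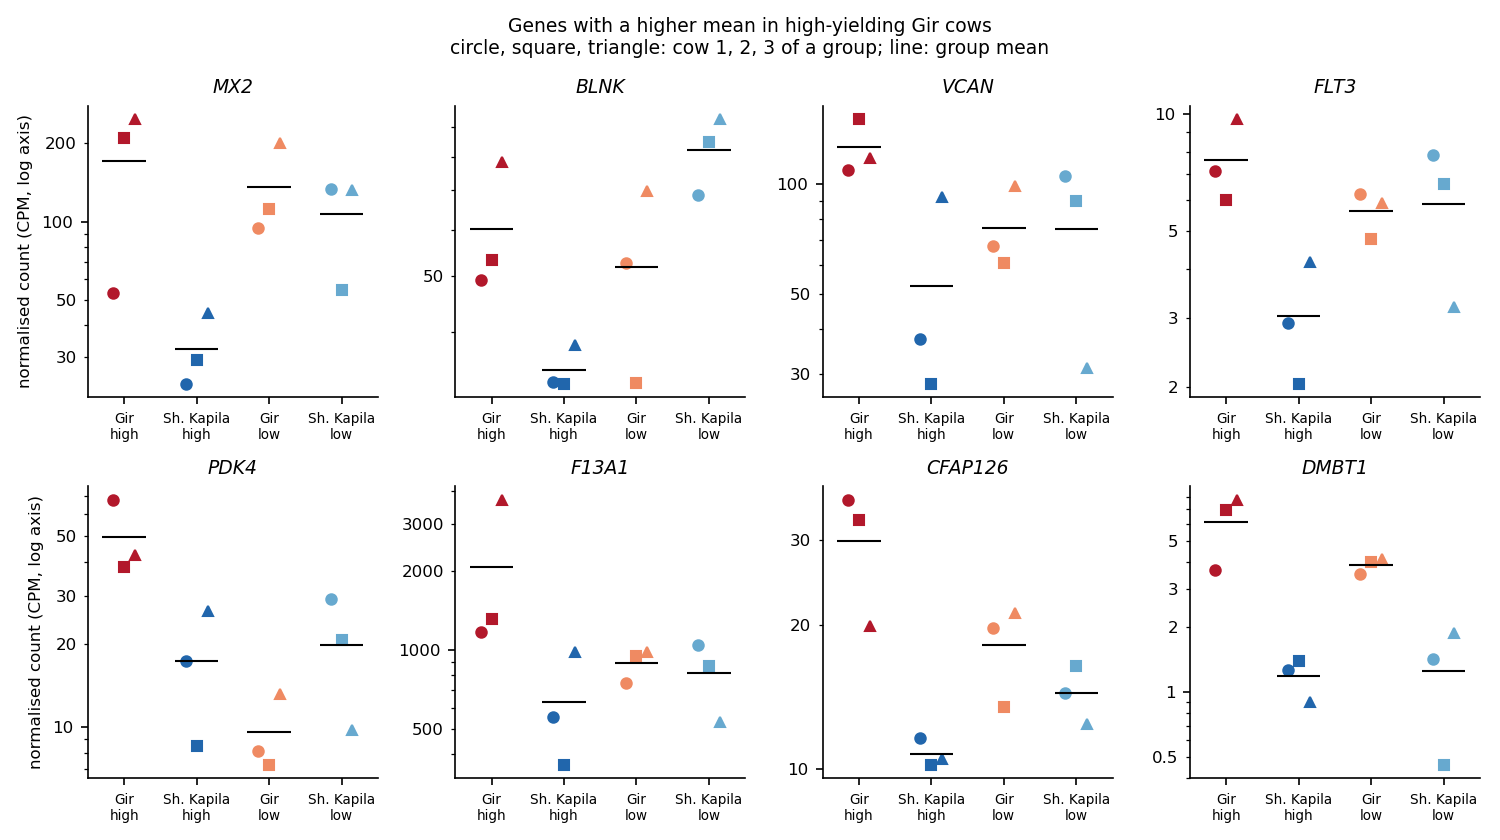
Normalised counts (CPM, log axis) of 8 genes with the higher mean in high-yielding Gir cows, in the 12 cows by breed and yield class, with 3 points for the cows and a line for the group mean. These genes too were chosen for a low p or after their values were seen, so their separation partly follows from that choice. Every high-yielding Gir point lies above every high-yielding Shweta Kapila point, for MX2 at 53 to 249 CPM against 23.7 to 44.4, and PDK4 has the opposite order of means in the low-yielding cows.

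A pair of unnamed genes, picked by their values, was near 0 in one breed. LOC109577299 was at 0.465, 0.326 and 0.103 CPM in Gir and at 57.3, 31.6 and 19 CPM in Shweta Kapila. LOC109571678 was at 12.9, 15.6 and 7.07 CPM in Gir and at 0.253, 0.107 and 0.149 CPM in Shweta Kapila. EdgeR on the 6 high-yield libraries gave both an adjusted p of 0.00239, and edgeR on 12 libraries gave 0.233 and 0.244. In the low-yielding cows single animals broke the pattern: LOC109577299 was at 9.03, 0.23 and 48.6 CPM in Shweta Kapila, and LOC109571678 at 15.8, 0.0525 and 22.4 CPM in Gir. Levels therefore differed from cow to cow within a breed at both genes.

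Cytosolic ribosomal protein genes had the higher mean in Shweta Kapila for 71 of 74, at a median of 0.42, and 13 reached an unadjusted p under 0.05 on that side (4.89% of all genes). Nuclear genes of oxidative phosphorylation, which encode the mitochondrial respiratory chain, did so for 63 of 71, at a median of 0.44, with 13 at an unadjusted p under 0.05. Neither edgeR nor DESeq2 called a member of either list. The mean log2 CPM of the ribosomal protein genes was 8.07, 8.04 and 7.68 in Gir cows 1 to 3 and 8.80, 8.65 and 7.68 in Shweta Kapila cows 1 to 3, so that cow 3 of both breeds stood at the same level. For oxidative phosphorylation the means were 4.81, 4.79 and 4.65 in Gir and 5.67, 5.21 and 4.54 in Shweta Kapila, where cow 3 lay below all Gir cows. The share of short identifiers, lowest in Shweta Kapila cows 1 and 2 and highest in cow 3, ran opposite to both list levels over these cows. With that share as a covariate the medians were 0.17 and 0.19, and without Shweta Kapila cow 3 they were 0.74 and 0.71, with 32 and 26 genes at an unadjusted p under 0.05. The part of the share in the result was not tested further. NDUFA4, a respiratory chain subunit, was at 65.9, 54 and 38.4 CPM in Gir and at 143, 113 and 69 CPM in Shweta Kapila, and RPS24 was at 239, 169 and 97.1 CPM against 303, 486 and 419 CPM. Proteasome genes had the higher mean in Shweta Kapila for 24 of 28, at a median of 0.22.

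**Figure D4:**
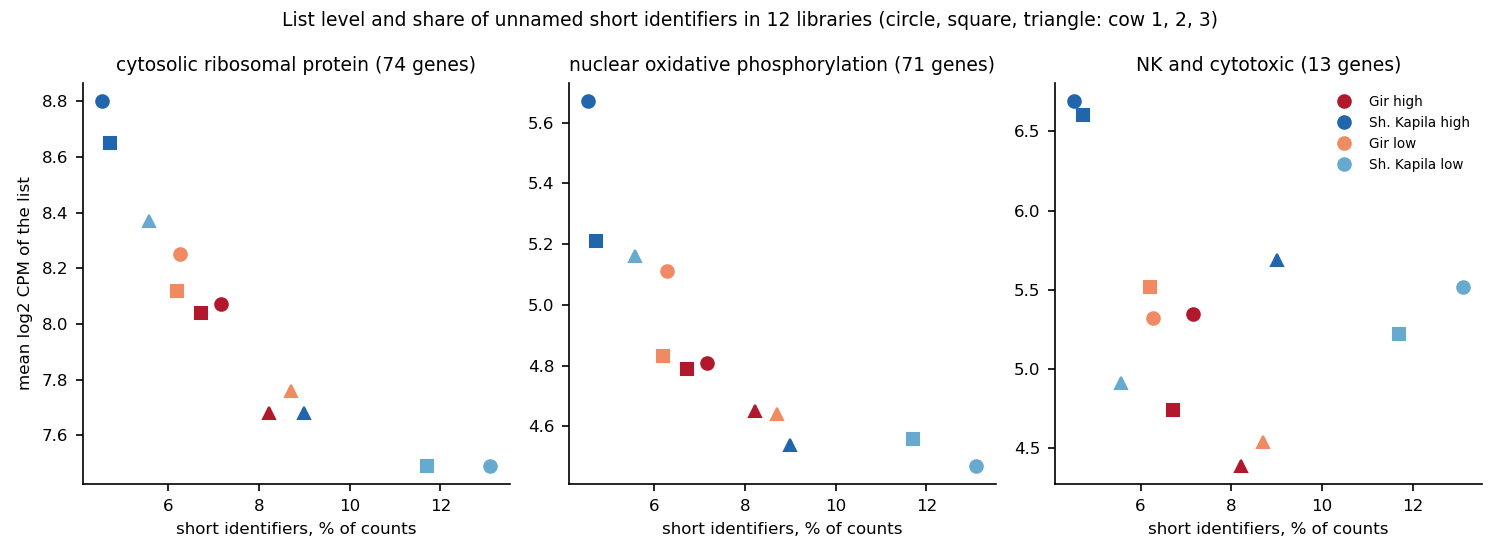
Mean log2 CPM of 3 gene lists (vertical axis) against the share of counts on short identifiers without a name (horizontal axis, percent) in the 12 libraries, coloured by breed and yield class. The ribosomal protein and oxidative phosphorylation lists lie lower in libraries with a larger share, from 8.80 at 4.54% in Shweta Kapila high cow 1 to 7.49 at 13.1% in Shweta Kapila low cow 1 for ribosomal proteins, while the cytotoxic list of Shweta Kapila high cow 3 is at 5.69 with a share of 9%.

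Genes of fat metabolism and of milk traits were counted in 2 lists. Of 40 tested fatty acid and triglyceride genes, 26 had the higher mean in Gir, and 3 on the Gir side and 2 on the Shweta Kapila side reached an unadjusted p under 0.05, against 3% and 4.89% of all genes. Of 26 tested milk synthesis and milk trait genes, 15 had the higher mean in Gir, with 2 at that p on the Gir side and 1 on the other. Without Shweta Kapila cow 3 the Gir-side counts were 7 and 5. PDK4, a kinase that turns cells from glucose to fat as fuel, was at 67.6, 38.4 and 42.6 CPM in Gir and at 17.4, 8.48 and 26.5 CPM in Shweta Kapila, a log2 difference of 1.5 ± 0.47 without overlap. FABP3, a carrier of fatty acids in muscle and mammary gland, was at 22.6, 25.6 and 15.6 CPM against 79.2, 66.9 and 20.7 CPM, with Shweta Kapila cow 3 inside the Gir range. LPL, lipoprotein lipase, which frees fatty acids from blood lipids, was at 7.8 to 14.5 CPM in Gir and at 2.15 to 6.61 CPM in Shweta Kapila. XDH, xanthine dehydrogenase, also a protein of the milk fat globule, was at 691, 560 and 1400 CPM against 396, 126 and 694 CPM. The casein genes CSN1S1, CSN2 and CSN3 and LALBA, the gene of the milk protein alpha-lactalbumin, had no count in any of the 6 libraries. In the list of growth hormone, prolactin and insulin signalling, 21 of 40 genes had the higher mean in Gir and 19 in Shweta Kapila, and without Shweta Kapila cow 3 the split was 28 to 12. GRB10, an adaptor that dampens insulin receptor signalling, was at 2.22 to 3.02 CPM in Gir and at 4.93 to 8.48 CPM in Shweta Kapila, and its relative GRB14 was at 0.523 to 1.09 against 0 to 0.224 CPM.

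Heat shock and cell cycle genes were divided about evenly over the 6 cows. Of 30 heat shock and chaperone genes, 14 had the higher mean in Gir and 16 in Shweta Kapila, and of 30 cell cycle genes 15 did so on each side, with a median of -0.01 in place of 0.02 under RLE or upper-quartile scaling. No member of either list reached an unadjusted p under 0.05. The even split of the heat shock list rested on Shweta Kapila cow 3: without her, 19 had the higher mean in Gir and 11 in Shweta Kapila, the median, Gir minus Shweta Kapila, went from -0.05 to 0.18, and 2 reached that p on the Gir side. Cholesterol genes were divided 15 to 14 and none reached that threshold either. In the haem and iron list, 18 of 27 genes had the higher mean in Gir (14 without Shweta Kapila cow 3), and HMOX1, the enzyme that breaks down haem, was at 55.1, 48 and 71.1 CPM against 39.4, 11.1 and 19.8 CPM.

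The low-yielding cows give a second comparison of the same breeds in other animals. It shares no library with the first, but both use the same estimate of spread for each gene. A gene with a small estimate can thus reach a low p in both, which the overlaps below do not allow for. There edgeR called 0 of 15420 genes (lowest adjusted p 0.646) and DESeq2 called 21 (0.125%). At an unadjusted p under 0.05 there were 809 (5.25%), 486 with the higher mean in Shweta Kapila (3.15%) and 323 in Gir (2.09%). Of the 754 genes at an unadjusted p under 0.05 with the higher mean in Shweta Kapila in high-yielding cows, 90 were so too in low-yielding cows, which is 11.9% of the first list and 18.5% of the second. For the Gir side the overlap was 41 genes, 8.87% of 462 and 12.7% of 323. The same sign in both classes was found for 67.2% and 68.8% of the high-yield genes. That share was not computed over all genes, so these percentages have no baseline here. Of all genes, 54.4% in the high and 53.3% in the low class had the higher mean in Shweta Kapila. EdgeR called no gene in either class, so the overlap of the lists uses its unadjusted p, and overlaps of the calls of other tools were not computed.

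Genes shared by both classes included KCNK1, SAXO1, ADCY3, ABHD15 and SLAMF7 on the Shweta Kapila side. In low-yielding cows KCNK1 was at 2.91 to 3.83 CPM in Gir and at 5.65 to 11.3 CPM in Shweta Kapila, and SAXO1 at 0.287 to 0.42 against 0.799 to 1.82 CPM. ADCY3, an enzyme that makes cyclic AMP, had log2 differences of 1.85 and 1.31 in the high and low classes, and SLAMF7, a receptor of natural killer and plasma cells, had 1.59 in both. On the Gir side the shared genes included DMBT1, COL11A1, CAPN3, TRPM6, TTN, SIGLEC1 and STEAP4. SIGLEC1 was at 7.24 to 9.91 CPM in low-yielding Gir cows and at 1.6 to 2.97 CPM in low-yielding Shweta Kapila cows. COL11A1 was at 1.72 to 2.47 CPM against 0.0445 to 0.171 CPM, so that of the 6 Gir cows only high-yielding cow 3 lay in the Shweta Kapila range. STEAP4, a metalloreductase, was at 277 to 340 CPM against 95.1 to 139 CPM in high-yielding cows, and at 135, 92.9 and 307 CPM against 28.6, 108 and 68.1 CPM in low-yielding cows.

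The cytotoxic genes of lowest p were not separated between the breeds in low-yielding cows. There PRF1 was at 104, 133 and 55.4 CPM in Gir and at 102, 116 and 121 CPM in Shweta Kapila, and CCL5 was at 303, 229 and 60.8 CPM against 172, 159 and 151 CPM. The breeds overlapped for both. The median log2 difference of the natural killer and cytotoxic list, Shweta Kapila minus Gir, was 0.00 in low-yielding cows, that of the T cell list was -0.14 and that of the B cell list was 0.09. The difference of the breed differences was tested in the same fit, where edgeR called 0 genes and its lowest adjusted p was 0.955. An unadjusted p below 0.05 was found for 587 genes (3.81%). PRF1 had an unadjusted p of 0.00101 and CCL5 of 0.00114 in that test. Both genes were named for a low p in the high-yield comparison, whose values enter the test. Low p-values for them are thus partly built in and are no separate evidence. DESeq2 called 8 genes in the same test (0.0348%), CCL5 among them (adjusted p = 0.0407). The Shweta Kapila minus Gir difference was larger in the high than in the low class for 12 of 13 cytotoxic genes. Of all genes, 49.1% had that sign. An unadjusted p under 0.05 was reached by 7 of the 13, against 362 of all 15420 genes on that side. All 16 B cell genes had the opposite sign in that comparison, against 50.9% of all genes. That p was reached by 3 of the 16, against 225 of all 15420 genes on their side. Both lists were taken up here after their high-yield values, which enter this test, were seen. Their counts are thus also partly built in and are no separate evidence.

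BLNK and PDK4 had differences of opposite sign in the classes. In low-yielding cows BLNK was at 52.5, 32.7 and 69.9 CPM in Gir and at 68.7, 84.8 and 92.9 CPM in Shweta Kapila, and PDK4 at 8.15, 7.24 and 13.2 CPM against 29.4, 20.8 and 9.7 CPM. Their unadjusted p by edgeR for the difference of breed differences was 0.00331 and 0.00212, where the lowest adjusted p of all genes was 0.955. Genes here were named for a low p in that test or in the high-yield comparison, or after their values were seen. Such p-values are thus partly built in and are no separate evidence. FCER2, the low-affinity IgE receptor of B cells, followed the same course, with log2 differences, Shweta Kapila minus Gir, of -0.86 in the high and 1.14 in the low class. On the other side RGS9, a regulator of G protein signalling, was at 19.9 to 26.3 CPM in Gir and at 57.8 to 67.3 CPM in Shweta Kapila among high-yielding cows, and at 11.2 to 29.3 against 9.93 to 18.9 CPM among low-yielding cows. CX3CR1, counted above with the monocyte markers, had the higher mean in Shweta Kapila in both classes, with log2 differences of 1.88 and 1.59. CCR8, a chemokine receptor, did so too, with 2.38 (3.16 without high-yielding Gir cow 1) and 1.81. For both genes low-yielding Shweta Kapila cow 3 stood apart, at 148 CPM of CX3CR1 against 1190 and 660 in the other two, and at 7.31 CPM of CCR8 against 76.7 and 42.2.

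**Figure D5:**
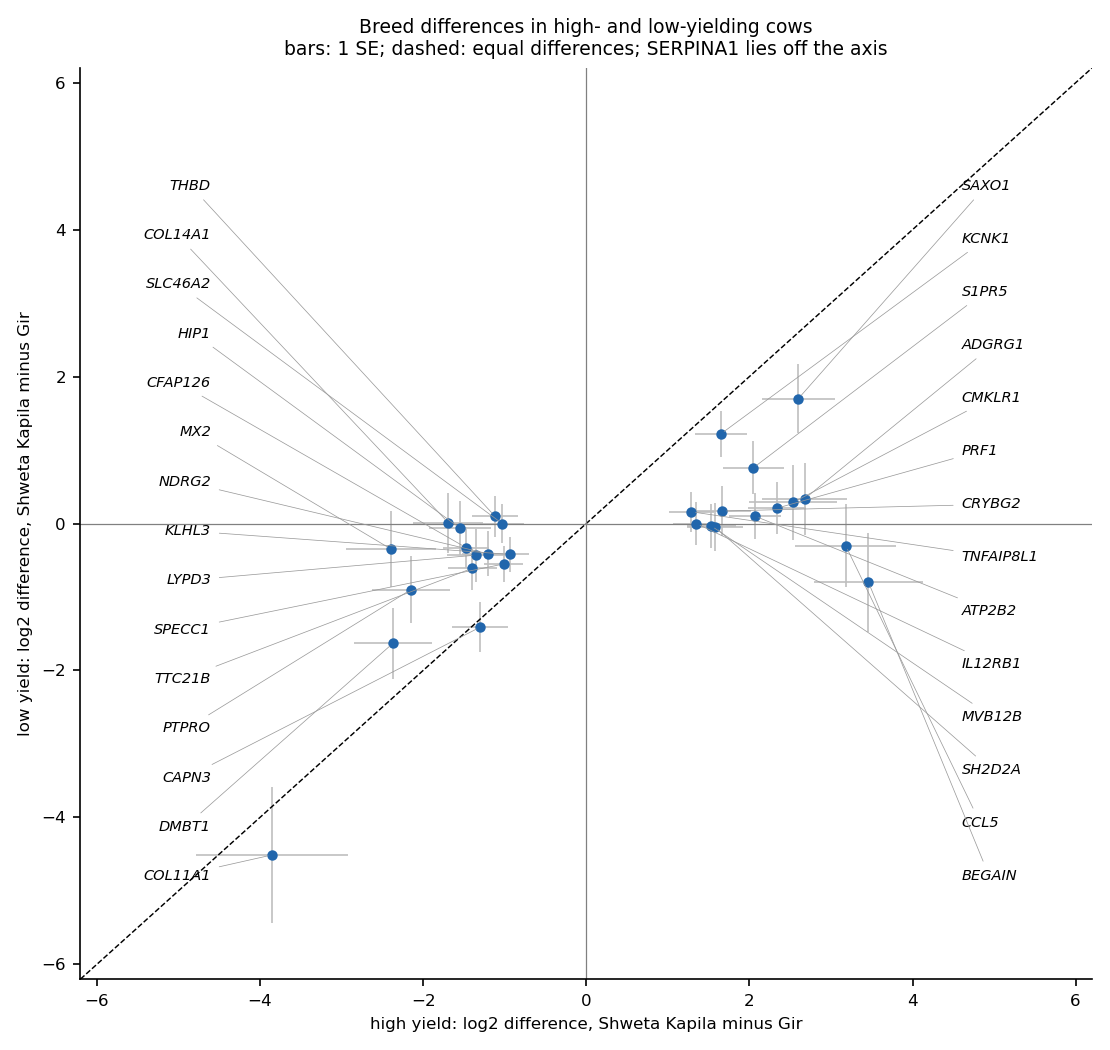
Log2 differences, Shweta Kapila minus Gir, in high-yielding cows (horizontal axis) and in low-yielding cows (vertical axis) for the 15 genes with a name on each side that had the lowest p in the high class, hence chosen on the horizontal values, with bars of 1 SE and a dashed line of equal differences. SERPINA1 is left off. SAXO1 (2.60 and 1.70), DMBT1 and COL11A1 lie toward the dashed line, while PRF1 (2.34 and 0.21) and CCL5 (3.18 and -0.30) lie near the horizontal axis.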

How the data were processed

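RNA from blood of 12 cows was sequenced after ribosomal RNA removal with a strand-marking kit, per the labels' protocols. The authors deposited expected counts for each gene, 57% of them not whole (tolerance 1e-06), with no scaling found in the column totals. Trimmomatic and FastQC are named per the submitters' processing notes, while the aligner, counter, strand setting, build and annotation were not given in the sources used here, so reads of near-identical genes (ribosomal proteins, granzymes, receptor segments) and of overlapping genes may be split in unknown ways.

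Columns were matched to cows through the sample descriptions, and the column of Shweta Kapila low cow 3, whose number falls outside the run of the others, was matched by the same name in her description.

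Expected counts were rounded and analysed in R 4.3.3. Of 26229 identifiers, 22754 (86.8%) matched a RefSeq gene table (assembly NIAB-ARS_B.indTharparkar_mat_pri_1.0), which served for names and gene order. Genes without a name there are not analysed by name. Filtering by filterByExpr (minimum count 10, minimum total 15, 4 groups) left 15420 genes. EdgeR 4.0.16 with TMM scaling and a robust quasi-likelihood fit of 4 group means over 12 libraries gave 2-sided tests with Benjamini-Hochberg adjustment at 0.05. Group contrasts were Gir against Shweta Kapila in high yield, the same in low yield, and their difference. CPM values are counts per 1e6 of TMM-scaled library size, not corrected for gene length, so they compare cows and not genes. The common biological coefficient of variation was 0.381 and the median SE of a high-yield log2 difference 0.39. The procedure was tested on simulated data. DESeq2 1.42.0 and limma 3.58.1 served as alternatives, beside other scalings, covariates and left-out cows. Figures were drawn with matplotlib 3.10.9.

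The comparison, the gene lists and the tests were chosen with earlier results of these data known. Named genes were the 15 of lowest p on each side, up to 4 of lowest p in each list, and the 6 of lowest p on each side for the difference of breed differences. A rule on called genes named none, and genes shared by both classes were taken at an unadjusted p under 0.05 instead, a change made after seeing the data. Other genes and all LOC or unnamed identifiers were named after their values were seen.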

Additional observations from a re-analysis of the deposited data

How the results depend on the processing

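The count of genes called for high-yielding cows depended on the tool and on the libraries. EdgeR called 0 in the reported fit and 0 with RLE scaling, upper-quartile scaling and counts thinned to equal depth. It called 3 with no filter on low counts, 6 with the share of short identifiers as a covariate, 18 (16 higher in Shweta Kapila) on the 6 high-yield libraries alone, 119 (86 higher) once the 3 deepest libraries were left out, and 164 (123 higher) with the log2 total as a covariate. The 3 deepest libraries were all Shweta Kapila: high cow 3 (27.2 M) and low cows 1 and 2 (25.9 and 22.7 M). Without them high cows 1 and 2 were set against the 3 Gir cows, and low cow 3 alone stood for her group. That setting thus also leaves out the high cow that lay apart on the first principal component. Depth went partly with breed, so neither this setting nor the log2 total as a covariate can tell depth from breed. DESeq2 called 131 and limma-voom with sample weights 226 (150 higher), and 101 of the latter were among the former. Leaving out 1 cow gave 0 to 8, with 7 without Shweta Kapila high cow 3, 8 without Shweta Kapila low cow 3, and 1 each without Shweta Kapila high cow 1 and Gir low cow 2.

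For low-yielding cows DESeq2 called 21 and limma-voom 5784, and leaving out 1 cow gave 0 to 4, the 4 without Shweta Kapila low cow 3. For the difference of breed differences DESeq2 called 8 and limma-voom 1321, and leaving out 1 cow gave 0 to 1. The sample weights of limma-voom ran from 0.184 for Shweta Kapila low cow 3 to 6.62 for low cow 2. The cause of these differences was not tested. The labels give every group the numbers 1 to 3. Deviations of same-numbered high-yielding Gir and Shweta Kapila cows had correlations of -0.207, -0.0416 and 0.00624, so no pairing by number was seen there. With 3 cows in a group these values cannot settle whether the numbers mark anything the cows share. With the replicate number as a block, edgeR called 4 genes, all higher in Shweta Kapila: PRF1 was not among them and ADGRG1 was. In the high-yield libraries 10 counts correspond to 0.373 to 0.633 CPM, so values under that rest on few reads.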

Other observations

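Genes of cell adhesion and migration had the higher mean in Shweta Kapila for 19 of 29 tested in high-yielding cows, with 5 at an unadjusted p under 0.05 by edgeR on that side (4.89% of all genes, 8 members without Shweta Kapila cow 3) and 7 for which every Shweta Kapila cow lay above every Gir cow (6.7% of all genes). ITGAL, the integrin chain by which lymphocytes hold on to other cells, was at 548, 481 and 452 CPM in Gir and at 862, 878 and 1110 CPM in Shweta Kapila. CXCR6, a chemokine receptor of effector T cells, was at 75, 62.8 and 30.7 CPM against 175, 154 and 77.8 CPM. Both genes were separated between the breeds, ITGAL by a wide gap and CXCR6 by a narrow one. Mitochondrial ribosomal protein genes had the higher mean in Shweta Kapila for 53 of 70, at a median log2 difference of 0.17, and 3 reached an unadjusted p under 0.05, no larger a share than the 4.89% of all genes, or 7 without Shweta Kapila cow 3.

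Glycolysis genes had the higher mean in Gir for 20 of 28, and none reached an unadjusted p under 0.05. Complement and Fc receptor genes did so for 10 of 14, class II antigen presentation genes for 5 of 7 and immediate early genes for 14 of 23. MYC, a transcription factor of cell growth and the only immediate early gene at an unadjusted p under 0.05, was at 152, 172 and 190 CPM in Gir and at 101, 98.4 and 125 CPM in Shweta Kapila. All 3 Gir cows lay above all 3 Shweta Kapila cows for MYC, with a log2 difference, Gir minus Shweta Kapila, of 0.66 ± 0.23.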
